A study of Homo sapiens with 6 samples.

Results

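The genes described here are 10 components of the extrinsic apoptosis pathway, which starts at death receptors on the cell surface. They are the ligand gene TNFSF10 (TRAIL), the receptor genes TNFRSF10A, TNFRSF10B and FAS, the adaptor genes FADD and RIPK1, the initiator caspases CASP8 and CASP10, and the inhibitors CFLAR and XIAP. They were chosen by gene symbol, and all 10 were found, each once, among the 23858 genes of the table. RNA of NB4 cells was sequenced without treatment (control, 3 libraries) and after 6 h with arsenic trioxide (3 libraries). NB4 cells, an established human line of acute promyelocytic leukaemia, carry the PML-RARA fusion gene in all libraries of both groups. Arsenic trioxide is given as a medicine for it. The sources used here give neither the dose nor whether the replicates were separate cultures. The p-values therefore measure the spread between these libraries only, which may be technical.

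TRAIL, made from TNFSF10, binds the death receptors encoded by TNFRSF10A (DR4) and TNFRSF10B (DR5), while FAS is the receptor of Fas ligand. Bound receptors recruit the adaptor FADD, which gathers caspase-8 and caspase-10 so that they activate one another, and CFLAR (c-FLIP), a relative of these caspases, limits that step. RIPK1 is a kinase and scaffold that steers receptor signals towards survival or death, and XIAP blocks the caspases that carry out the final cuts. In acute promyelocytic leukaemia cells TRAIL is known as a gene induced by retinoic acid.

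After 6 h with arsenic trioxide the TRAIL gene fell 2.55-fold, while its receptor TNFRSF10B rose 1.80-fold, CASP10 1.78-fold, FAS 1.71-fold and RIPK1 1.44-fold (ratios of group means of RPKM, reads scaled to exon length and library size, n = 3 each). Of the 10 genes, 4 were called higher and 1 lower by limma-trend (a linear model on log2 of RPKM + 1, Benjamini-Hochberg adjusted p under 0.05), and 5 did not pass: TNFRSF10A, FADD, CASP8, CFLAR and XIAP. Over all 16803 genes tested, 25.4% were called, 12.0% as higher and 13.4% as lower. The filter on low values, a mean RPKM of 1 or more, kept all 10 genes. Their median log2 fold change was 0.25, where that of all tested genes was -0.0033. In 6 of the 10 genes every treated library lay on one side of every control library, against 44.6% of all tested genes. These were 5 with treated libraries above (21.9% of all tested genes) and 1 with them below (22.6%). In bulk RNA, fewer cells expressing a gene and less of its RNA per cell cannot be told apart.

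**Figure D1:**
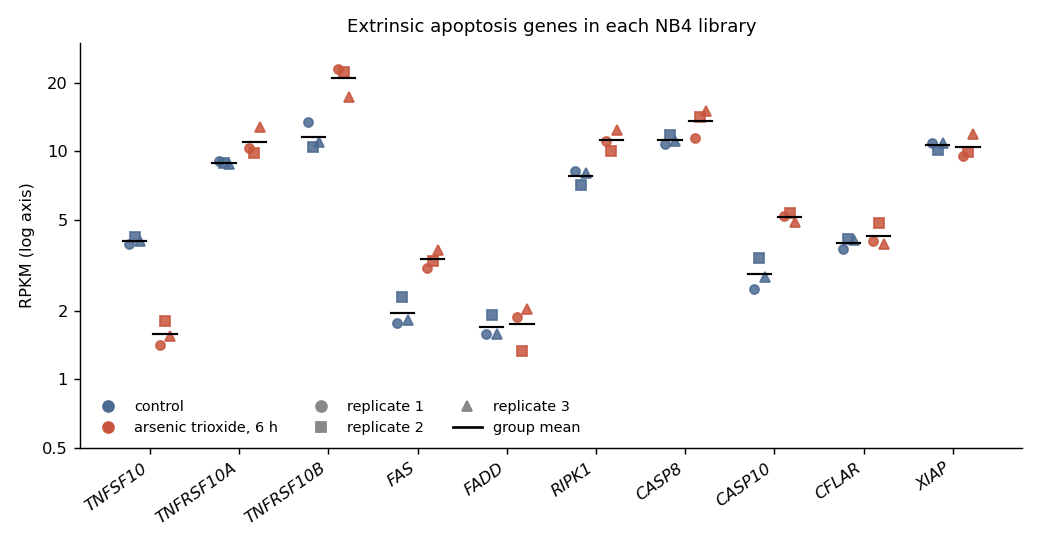
RPKM of each of the 10 genes (log axis) in the 3 control and 3 arsenic trioxide libraries, with a marker shape per replicate and a line at each group mean. TNFSF10 lies lower in all 3 treated libraries, and TNFRSF10A, TNFRSF10B, FAS, RIPK1 and CASP10 lie higher in all 3. Of these, TNFRSF10A was not called.

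Library totals were 19361333 to 22609019 reads, and the 10 genes held 52 to 2655 reads per library, with FADD the shallowest. Control replicate 1 and arsenic trioxide replicate 3 lay apart from the other 4 libraries on the second principal component (21.3 and 23.0, against -14.8 to -6.85), which held 15.2% of the variance. Of 6 promyelocyte markers (MPO, PRTN3, AZU1, CTSG, CD33 and ELANE, the last not analysed here), 5 were detected, with a summed level of 998 to 1389 RPKM in control and 666 to 1006 RPKM in treated libraries. The T cell list was at 3.22 to 3.76 and 3.04 to 4.22 RPKM, all from CD3D. Of the B cell markers, CD79A was at 0.653 to 1.15 RPKM in control and 1.03 to 1.40 RPKM in treated libraries, which overlap, CD22 was between 0 and 0.0947 RPKM, and MS4A1 was not analysed here. The part of these markers in the results was not tested.

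To place the changes on the genome, the 250 bases before the most upstream RefSeq start are shown for TNFSF10, the gene that fell, and for FAS and RIPK1, which rose (RefSeq, GRCh38.p14, 5′ to 3′ on the strand of the gene). Windows were found for 7 of the 10 genes. Capitals mark matches, on either strand, to any of 10 motifs that were searched.
TNFSF10, chr3:172523431-172523680, minus strand: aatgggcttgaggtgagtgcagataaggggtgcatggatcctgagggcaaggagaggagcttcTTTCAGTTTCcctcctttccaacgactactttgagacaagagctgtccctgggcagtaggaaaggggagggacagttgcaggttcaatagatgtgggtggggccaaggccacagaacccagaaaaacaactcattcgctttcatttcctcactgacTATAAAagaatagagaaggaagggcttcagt
FAS, chr10:88990548-88990797, plus strand: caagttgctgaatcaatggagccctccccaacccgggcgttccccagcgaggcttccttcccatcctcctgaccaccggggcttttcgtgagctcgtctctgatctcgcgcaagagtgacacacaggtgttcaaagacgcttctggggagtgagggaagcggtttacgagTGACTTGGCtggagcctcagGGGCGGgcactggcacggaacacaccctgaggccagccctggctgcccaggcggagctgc
RIPK1, chr6:3063717-3063966, plus strand: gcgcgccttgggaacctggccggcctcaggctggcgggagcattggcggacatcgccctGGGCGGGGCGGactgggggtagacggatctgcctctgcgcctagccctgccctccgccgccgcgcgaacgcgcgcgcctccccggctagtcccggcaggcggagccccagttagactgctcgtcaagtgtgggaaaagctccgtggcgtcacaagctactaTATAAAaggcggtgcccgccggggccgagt
The TNFSF10 stretch holds a match to the interferon response element on the opposite strand that begins 187 bases before the start, and a TATA box (TATAAA) 31 bases before it. The RIPK1 stretch holds a TATA box 30 bases before the start and a pair of overlapping GC boxes (GGGCGG) from 191 bases before it. The FAS stretch holds a GC box and a match to the antioxidant response element (TGACNNNGC) that begins 80 bases before the start. Among all 35116 windows of 300 bases (250 before to 50 after a start), 3.57% hold the interferon element, 11.5% the TATA box, 45.0% the GC box and 13.3% the antioxidant element. The NF-kB, FOXO (GTAAACA), AP-1 (TGACTCA), cyclic AMP (TGACGTCA) and ATF4-C/EBP (TTGCATCA) motifs and the p53 half-site had no match in these 3 stretches. A p53 half-site was matched in the window of another FAS start, beginning 122 bases before it. Another was matched in a CASP8 window, beginning 121 bases before the start, and 6.63% of all windows hold one. The antioxidant element was also matched in CFLAR and XIAP windows, beginning 171 and 80 bases before their starts. CASP8, CFLAR and XIAP were not called. The interferon element was also matched in overlapping windows of 2 other RIPK1 starts. These are the same bases in both windows, beginning 67 bases before 1 start and 183 before the other. A CASP8 window held a match to it as well, beginning 3 bases before the start. A match is a description of the letters and not a binding site.

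The ligand came first in size. TNFSF10 (ENSG00000121858, chromosome 3, 172505508 to 172523507, GRCh38) was at 3.93, 4.19 and 4.02 RPKM in control replicates 1, 2 and 3, and at 1.41, 1.81 and 1.55 RPKM in the treated ones. These values rest on 276 to 316 reads in control and 109 to 133 reads in treated libraries. The highest treated library stood well under the lowest control library. The group means were 4.05 ± 0.132 and 1.59 ± 0.203 RPKM (SD, n = 3), a log2 fold change of -0.97 ± 0.12 SE on the RPKM + 1 scale (limma-trend adjusted p = 0.00245). On the recovered reads, where no RPKM is added, limma-voom gave -1.35, and the authors' deposited table lists -1.37. TNFSF10 was called in all 15 other settings and library subsets tried. AC007919.18, on the other strand with 0 shared exon bases, was at 1.64 ± 1.57 and 0.691 ± 0.859 RPKM and did not pass. Among the 10 genes TNFSF10 was the sixth by level in control and the lowest after treatment, when its range overlapped that of FADD.

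Of the TRAIL receptors, TNFRSF10B rose. TNFRSF10B (ENSG00000120889, chromosome 8, 23020133 to 23069179) was at 13.5, 10.4 and 11.0 RPKM in control and at 23.1, 22.4 and 17.4 RPKM in treated replicates 1, 2 and 3. Control replicate 1 was the highest of its group and arsenic trioxide replicate 3 the lowest of its own, and the groups did not overlap. The log2 fold change was 0.80 ± 0.13 SE (means 11.6 ± 1.64 and 20.9 ± 3.10 RPKM, SD, n = 3; limma-trend adjusted p = 0.00725), and it was 1.02 without those 2 libraries. It was called in all 15 other settings and library subsets. RHOBTB2 on the other strand, which shares 1.30% of the TNFRSF10B exon bases, was at 4.25 and 4.71 RPKM (log2 fold change 0.11, not called), and RP11-875O11.2 was below the filter. TNFRSF10B was the most abundant of the 10 genes per length of exon in both groups, though in control its range overlapped that of CASP8.

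TNFRSF10A (ENSG00000104689, chromosome 8, 23190452 to 23225126), the other death receptor for TRAIL, was at 9.09, 8.86 and 8.83 RPKM in control and 10.3, 9.87 and 12.8 RPKM in treated libraries. The treated values all lay above the controls, yet the difference did not pass the test (log2 fold change 0.26, 95% confidence interval 0.02 to 0.51, unadjusted p = 0.0381, limma-trend adjusted p = 0.106). It passed in 0 of the 15 other settings, with adjusted p from 0.0652 to 0.217. In the annotation 16.6% of its exon bases are shared with genes on the other strand, which these libraries, whose kit keeps no strand information, cannot separate. Of these bases RP11-1149O23.3 shares 266 (log2 fold change 0.18) and RP11-1149O23.2 shares 224 (0.26), and neither gene passed (the latter named after its values were seen). RPL23AP55 overlaps the gene with 0 shared exon bases and did not pass (0.20).

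Within each library the log2 ratio of TNFRSF10B to TNFRSF10A was 0.57, 0.23 and 0.31 in control and 1.16, 1.18 and 0.44 in treated replicates 1, 2 and 3. The mean ratio went from 1.29 to 1.90 (geometric means), with arsenic trioxide replicate 3 inside the control range. The difference of 0.56 on the log2 scale gave p = 0.2 in an exact two-sided permutation test over 20 assignments, whose smallest possible p is 0.1, so no ratio in this design can reach 0.05.

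FAS (ENSG00000026103, chromosome 10, 88990582 to 89015785), the receptor of Fas ligand, was at 1.77, 2.30 and 1.82 RPKM in control and 3.09, 3.30 and 3.70 RPKM in treated libraries, on 134 to 305 reads each. The groups did not overlap, and the means were 1.96 ± 0.294 and 3.36 ± 0.313 RPKM (SD, n = 3). Its log2 fold change was 0.56 ± 0.13 SE (limma-trend adjusted p = 0.0219). The call was not kept in 4 of the 6 fits with 1 library left out, those lacking control replicate 1 (adjusted p = 0.0618), control replicate 3 (0.0707), arsenic trioxide replicate 2 (0.0598) and arsenic trioxide replicate 3 (0.0601). It was also lost with control replicate 1 and arsenic trioxide replicate 3 left out together (0.114) and when the replicate number was a block (0.056). Near its start FAS overlaps ACTA2, an actin gene on the other strand, with which it shares 380 of its 4253 exon bases (8.93%) in GENCODE 29. The deposited FAS values correspond to 3750 exon bases, so the authors' gene model differs and the share in it is not known. ACTA2 had a log2 fold change of -0.34 and FAS-AS1 one of -0.02, and neither passed.

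**Figure D2:**
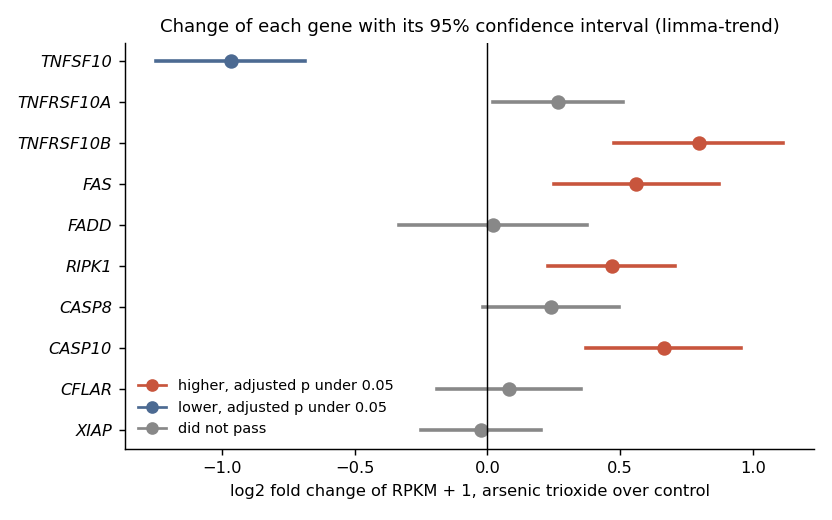
Log2 fold change of RPKM + 1 of each gene, arsenic trioxide over control, with its 95% confidence interval from limma-trend (n = 3 libraries per group). TNFSF10 lies below 0, TNFRSF10B, FAS, RIPK1 and CASP10 above it, and the other 5 did not pass the test after adjustment over all genes.

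Of the adaptors, RIPK1 rose and FADD did not pass. RIPK1 (ENSG00000137275, chromosome 6, 3063991 to 3115187) was at 8.23, 7.13 and 8.01 RPKM in control and 11.1, 10.0 and 12.4 RPKM in treated libraries. The groups did not overlap, with means of 7.79 ± 0.580 and 11.2 ± 1.21 RPKM (SD, n = 3). The log2 fold change was 0.47 ± 0.10 SE (limma-trend adjusted p = 0.0165). RIPK1 no longer passed with control replicate 2 left out (adjusted p = 0.0538), with arsenic trioxide replicate 1 left out (0.0509), or with control replicate 1 and arsenic trioxide replicate 3 left out together (0.0577). An overlapping gene on the other strand, ENSG00000272277, shares 5.63% of the exon bases of RIPK1 and was at 0.303 and 0.508 RPKM, below the filter.

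FADD (ENSG00000168040, chromosome 11, 70203163 to 70207390), which joins receptors to caspases, was at 1.59, 1.91 and 1.59 RPKM in control and 1.88, 1.33 and 2.03 RPKM in treated libraries. The treated libraries spanned the whole control range. Its log2 fold change was 0.021 (95% confidence interval -0.33 to 0.38, limma-trend adjusted p = 0.932). With 52 to 82 reads per library it was the least deeply measured of the 10 genes.

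The initiator caspases lie next to their relative CFLAR on chromosome 2, in the order CFLAR, CASP10, CASP8 over 172 kb, with gaps of 6.19 and 4.04 kb between the genes, all on the plus strand. Of the 3 neighbours only CASP10 was called. CASP10 (ENSG00000003400, 201182881 to 201229406) was at 2.48, 3.41 and 2.82 RPKM in control and 5.18, 5.37 and 4.91 RPKM in treated libraries. The groups did not overlap, with means of 2.90 ± 0.467 and 5.15 ± 0.230 RPKM (SD, n = 3). The log2 fold change was 0.66 ± 0.12 SE (limma-trend adjusted p = 0.0101), and the gene was called in all 15 other settings and library subsets, with 0.0465 the highest adjusted p. MTND4P23, a mitochondrial pseudogene on the other strand that shares 0 exon bases with CASP10, was also higher (0.501 ± 0.125 RPKM in control and 1.55 ± 0.614 RPKM in treated libraries, log2 fold change 0.74, limma-trend adjusted p = 0.0325). Of the 6 fits with 1 library left out, it was called only in that lacking arsenic trioxide replicate 3, with adjusted p from 0.0595 to 0.0910 in the rest. Another such pseudogene, MTND5P25, was at 0.61 and 0.736 RPKM and below the filter.

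CASP8 (ENSG00000064012, 201233443 to 201287711), the main initiator caspase of this pathway, was at 10.8, 11.8 and 11.1 RPKM in control and 11.4, 14.1 and 15.1 RPKM in treated libraries. Arsenic trioxide replicate 1 lay inside the control range and the other 2 treated libraries above it. The log2 fold change of 0.24 (95% confidence interval -0.016 to 0.49) did not pass (limma-trend adjusted p = 0.149). Without arsenic trioxide replicate 1 it was 0.35 and called (adjusted p = 0.0405), and in the other 14 settings it did not pass.

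CFLAR (ENSG00000003402, 201116104 to 201176687) was at 3.72, 4.13 and 4.07 RPKM in control and 4.03, 4.86 and 3.93 RPKM in treated libraries, and the groups overlapped. Its log2 fold change was 0.081 (95% confidence interval -0.19 to 0.35, limma-trend adjusted p = 0.643). It rests on 1692 to 2318 reads per library. The exons summed for CFLAR come to 22529 bases, the longest of the 10 genes, so its RPKM is low for its reads. The long and short proteins made from CFLAR act differently and share this 1 value. The antisense gene CFLAR-AS1 had a log2 fold change of 0.081 and did not pass, and IMPDH1P10, which also lies across it, was at 0.138 and 0.149 RPKM, below the filter. Together with them 10.1% of the CFLAR exon bases are shared with other genes.

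The log2 ratio of CFLAR to CASP8 within a library was -1.54, -1.52 and -1.45 in control and -1.50, -1.54 and -1.94 in treated replicates 1, 2 and 3. Only arsenic trioxide replicate 3 lay outside the control range. The difference of -0.16 gave p = 0.5 (exact two-sided permutation test, n = 3 each) and was -0.016 without that library.

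XIAP (ENSG00000101966, chromosome X, 123859724 to 123913979), the inhibitor of effector caspases, was at 10.9, 10.1 and 10.9 RPKM in control and 9.53, 9.97 and 11.9 RPKM in treated libraries. The treated libraries lay on both sides of the controls. The log2 fold change was -0.023 (95% confidence interval -0.25 to 0.20, limma-trend adjusted p = 0.881), and its sign turned with upper quartile factors. XIAP-AS1, on the other strand with 0 shared exon bases, was higher (log2 fold change 0.56, control 2.34 ± 0.470 RPKM, treated 3.93 ± 0.772 RPKM, limma-trend adjusted p = 0.0488), but lost the call in all 6 fits with 1 library left out (0.0584 to 0.121), under the replicate block (0.0750) and with limma-voom (0.0942). RP1-315G1.1, which also overlaps XIAP, did not pass (0.33). DIABLO, which binds XIAP and relieves its block of caspases, was at 2.84 ± 0.257 and 3.35 ± 0.198 RPKM (SD, n = 3; log2 fold change 0.18, limma-trend adjusted p = 0.284). The log2 ratio of DIABLO to XIAP was -1.97, -1.70 and -2.05 in control and -1.46, -1.67 and -1.78 in treated libraries, which overlap in 1 treated library (difference 0.27, exact permutation p = 0.2).

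**Figure D3:**
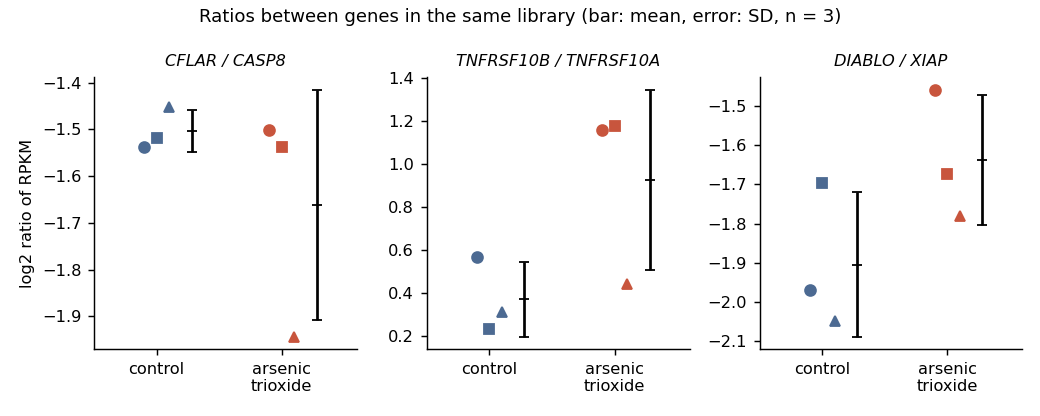
Log2 ratios of RPKM between genes of the same library, with the 3 control and 3 arsenic trioxide libraries as points (circle, square and triangle for replicates 1, 2 and 3) and the mean with its SD beside them. In the ratios of CFLAR to CASP8 and TNFRSF10B to TNFRSF10A, arsenic trioxide replicate 3 lies away from the other 2 treated libraries.

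Levels compared per length of exon put TNFRSF10B (11.6 RPKM), CASP8 (11.3) and XIAP (10.6) at the top in control libraries, where each overlapped the next in range. TNFRSF10A (8.93) and RIPK1 (7.79) followed without overlap, then TNFSF10 (4.05) and CFLAR (3.97), which overlapped, then CASP10 (2.90). FAS (1.96) and FADD (1.69) were lowest and overlapped. After treatment TNFRSF10B (20.9) stood alone at the top, CASP8, RIPK1, TNFRSF10A and XIAP (13.5, 11.2, 11.0 and 10.5) overlapped each neighbour, and CASP10, CFLAR, FAS and FADD (5.15, 4.27, 3.36 and 1.75) came before TNFSF10 (1.59).

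The authors' deposited table, whose columns carry the names DESeq2 gives, placed all 10 genes on the same side of an adjusted p of 0.05, with 5 of them under it, where 25.3% of the genes with a value were. In the authors' deposited table the log2 fold changes were 0.83 for TNFRSF10B, 0.82 for CASP10, 0.77 for FAS and 0.50 for RIPK1.

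**Figure D4:**
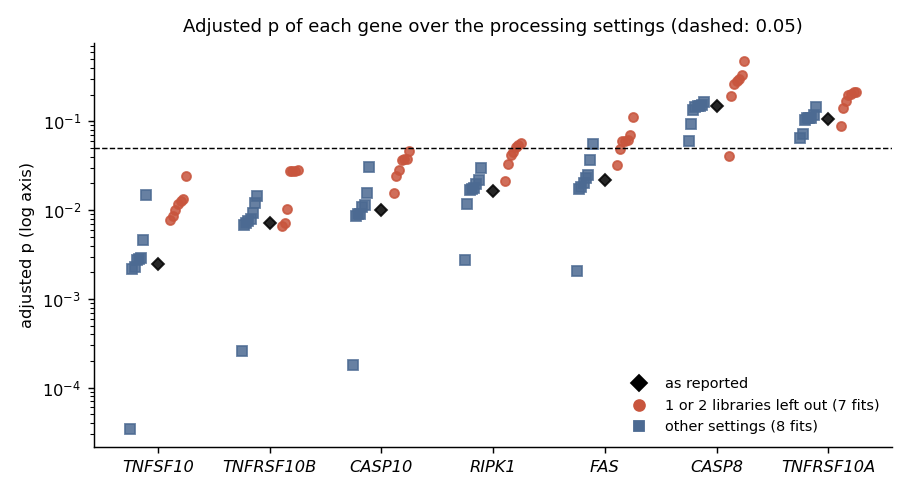
Adjusted p (log axis) of 7 of the genes as reported, in 7 fits that left out 1 or 2 libraries and in 8 fits with another setting, with the 0.05 threshold dashed. TNFSF10, TNFRSF10B and CASP10 stay under 0.05 in all 15 alternatives, RIPK1 in 12, FAS in 9, CASP8 in 1 and TNFRSF10A in 0.

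Around these genes, a list of 60 other genes of the pathway was examined by role. Of these, 52 were in the table and 42 passed the filter, of which 10 rose and 3 fell, or 31.0% called, beside 25.4% of all tested genes. Their median log2 fold change was 0.045. The counts moved to 6 higher and 1 lower with the replicate number as a block, to 12 and 6 with limma-voom, and to 5 and 4 without control replicate 1 and arsenic trioxide replicate 3. Leaving out single libraries gave 5 to 7 higher and 1 to 5 lower. The fewest higher were 5 with control replicate 2 or arsenic trioxide replicate 2 left out and 6 with arsenic trioxide replicate 1 left out. There was 1 lower without control replicate 1 or 2 or arsenic trioxide replicate 1 or 2, and 5 without arsenic trioxide replicate 3.

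Among receptors and decoys, 1 of 4 tested genes rose and 1 fell, where 12.0% of all tested genes were called higher and 13.4% lower. TNFRSF10D, a decoy receptor that binds TRAIL without passing on a death signal, had means of 6.50 ± 0.962 RPKM in control and 11.2 ± 2.01 RPKM in treated libraries (log2 fold change 0.70, limma-trend adjusted p = 0.0163). It no longer passed with control replicate 2 (adjusted p = 0.0535), control replicate 3 (0.0533) or arsenic trioxide replicate 2 (0.0541) left out, nor under the replicate block (0.0532). TNFRSF21, the death receptor DR6, went from 6.04 ± 0.730 to 3.68 ± 0.608 RPKM (-0.59, adjusted p = 0.0207), and no longer passed with control replicate 1 (0.0619), control replicate 2 (0.0571), arsenic trioxide replicate 1 (0.0655) or arsenic trioxide replicate 2 (0.0632) left out, nor under the block (0.0619). TNFRSF1A, the main receptor for TNF, was at 28.3 ± 4.17 and 28.5 ± 3.75 RPKM (0.013, adjusted p = 0.951). Neither of the 2 tested death ligands passed, and FASLG, the gene of Fas ligand, was not analysed here.

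Adaptors and ubiquitin regulators include, among others, proteins that build and trim the chains that hold RIPK1 in its survival role. This role had 5 of 20 tested genes higher and 1 lower. Thus 6 of 20 were called, where the share over all tested genes was 25.4%. TAB2, which brings the kinase TAK1 to ubiquitin chains, rose from 14.4 ± 1.16 RPKM in control to 23.2 ± 0.611 RPKM in treated libraries (log2 fold change 0.65, limma-trend adjusted p = 0.00185). RBCK1, a subunit of the linear ubiquitin ligase, rose from 11.8 ± 0.936 to 18.8 ± 1.48 RPKM (0.63). CYLD, a deubiquitinase that frees RIPK1, rose from 3.0 ± 0.38 to 5.55 ± 0.567 RPKM (0.71). The other 2, named after their values were seen, were the linear-chain deubiquitinase OTULIN (0.37) and the TAK1 gene MAP3K7 (0.31). MAP3K7 no longer passed with control replicate 1 (adjusted p = 0.0852), control replicate 2 (0.0905), arsenic trioxide replicate 1 (0.0876) or arsenic trioxide replicate 2 (0.0908) left out, under the block (0.0835) or with median-ratio factors (0.0512). DAXX, a nuclear protein first described as a FAS partner, fell from 27.6 ± 2.46 to 18.8 ± 1.44 RPKM (-0.53, adjusted p = 0.00629).

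**Figure D5:**
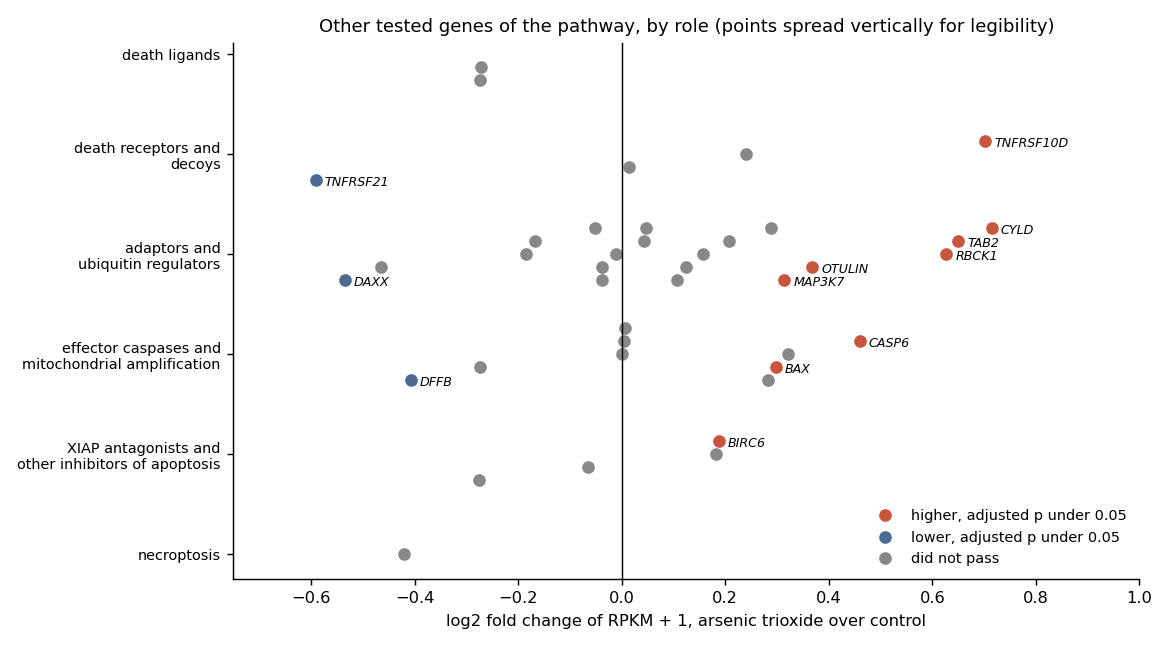
Log2 fold change of RPKM + 1, arsenic trioxide over control, of 40 tested genes of the surrounding pathway, grouped by role (n = 3 libraries per group). The called genes shown are named, 9 higher and 3 lower. Some of the 42 tested genes, 1 of the 10 called higher among them, are not drawn.

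Downstream of the initiators, 3 of 11 tested genes rose and 1 fell, or 36.4% called beside 25.4% of all tested genes. CASP6, a caspase of the later steps, had a log2 fold change of 0.46 (limma-trend adjusted p = 0.0463) and lost the call without any 1 of the 6 libraries (adjusted p 0.0521 to 0.120). BAX (0.30), which opens the mitochondrial membrane, was called at an adjusted p of 0.0495, lost the call in 11 of 15 other settings and, of the 6 fits without 1 library, was called only in that without control replicate 3. DFFB, the nuclease that caspases release to cut DNA, fell (-0.41, adjusted p = 0.0323), and its call was lost without any library except arsenic trioxide replicate 3 (0.0735 to 0.0921) and under the block (0.0763). BID, which caspase-8 cuts to engage mitochondria, was at 9.89 ± 1.04 and 9.98 ± 1.72 RPKM (0.0058, adjusted p = 0.979). Of the XIAP antagonists and other inhibitors of apoptosis, 1 of 4 tested genes rose, BIRC6 (0.19, adjusted p = 0.0299), which lost its call without any 1 of the 6 libraries (0.0563 to 0.0958). The 1 tested necroptosis gene did not pass.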

How the data were processed

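Per the labels' protocols, ribosomal RNA was removed from total RNA and the library kit was one that does not mark strand. HISAT2 2.1.0, HTSeq and DESeq2 are listed, with hg38 as the build, in the submitters' processing notes. Column names mark the reads as duplicate-removed. For 6 libraries and 23858 genes, RPKM values made by the authors were deposited. It also holds the authors' comparison: per the file headers, a mean normalized signal, a log2 fold change with its error, the test's score and p-values. The direction of the deposited fold change was read from the values. Of the deposited comparison, the mean was used to recover reads and the adjusted p-values were counted against 0.05. The rest is quoted as the authors'.

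The 10 genes, the surrounding lists and the tests were chosen with earlier results of these data known. The main test was limma 3.58.1 (R 4.3.3) in trend mode on log2(RPKM + 1), with treatment as the only term, over 16803 genes whose mean RPKM was 1 or more. P-values were adjusted by the Benjamini-Hochberg method over these and called under 0.05. The genes named are the 10, 4 fixed genes of the surrounding list (BID, TNFRSF1A, FASLG and DIABLO), up to 3 called genes per role and direction, and up to 2 genes overlapping each of the 10. Some genes of the lists are counted but not reported singly here. Whole reads were recovered from RPKM with exon lengths of GENCODE 29 and the deposited mean, with all 6 values within 0.01 of a whole number for 99.97% of genes. Coordinates of genes are those of GENCODE 29 (GRCh38, the build called hg38), counted from 1. Ratios were compared with exact two-sided permutation tests. Alternatives were pseudocounts of 0.1 and 5, no filter and one at 0.5 RPKM, median-ratio and upper quartile factors, limma-voom on recovered reads, the replicate number as a block, and leaving out each library. Leaving out control replicate 1 and arsenic trioxide replicate 3 together was chosen after seeing the data.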

Additional observations from a re-analysis of the deposited data

How the results depend on the processing

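Of 150 values of the 10 genes under 15 alternatives, 132 kept their direction and side of the threshold. Without control replicate 1 and arsenic trioxide replicate 3, the counts were 1200 higher and 1484 lower over all genes, 2 higher among the 10 genes and 5 higher in the surrounding list, and log2 fold changes were 0.46 for FAS and 0.43 for RIPK1, neither of which passed. That pair left out also turned the sign of FADD (-0.082), TNFRSF1A (-0.0014) and BID (-0.068), none of them called in any of these settings. Median-ratio factors turned TNFRSF1A (-0.00054) and BID (-0.0078), and upper quartile factors turned XIAP (0.017) and FAS-AS1 (0.0032), which also turned without control replicate 3 (0.44) or arsenic trioxide replicate 2 (0.36) and was -0.58 without control replicate 1 and arsenic trioxide replicate 3. The cause was not tested. Limma-voom called 6 lower genes in the surrounding list. The replicate numbers are shared by the groups in the labels, but same-numbered libraries did not deviate together (correlations of -0.085, 0.15 and -0.083). With the number as a replicate block FAS kept its log2 fold change of 0.56 and was not called (adjusted p = 0.056), and the surrounding list had 6 higher and 1 lower.

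Leaving out 1 library gave 1331 to 1525 higher and 1427 to 1908 lower genes over the whole table, 3 to 4 higher and 1 lower among the 10 genes, and 5 to 7 higher and 1 to 5 lower in the surrounding list. The lowest count of higher genes came without arsenic trioxide replicate 1, with 1341 without control replicate 3, and the lowest count of lower genes without control replicate 2, with 1487 without control replicate 3. The ranges of log2 fold changes were 0.51 to 0.64 for FAS, 0.40 to 0.54 for RIPK1, 0.16 to 0.35 for CASP8, -0.054 to 0.13 for FADD, -0.11 to 0.036 for XIAP, -0.11 to 0.12 for TNFRSF1A and -0.12 to 0.071 for BID. FADD was below 0 without control replicate 1 (-0.0072) or 3 (-0.0075) or arsenic trioxide replicate 1 (-0.017) or 3 (-0.054). XIAP was above 0 without arsenic trioxide replicate 1 (0.036) or 2 (0.0062). TNFRSF1A was below 0 without control replicate 1 (-0.11) or arsenic trioxide replicate 1 (-0.054) or 2 (-0.028), and BID without control replicate 2 (-0.075) or arsenic trioxide replicate 3 (-0.12). The pseudocount of 1 shrinks folds of genes at low RPKM: TNFSF10 had -1.31 with 0.1 and -0.46 with 5. FADD was the shallowest of the 10 genes, with 52 reads in its lowest library.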

Other observations

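Further receptor and adaptor genes of the surrounding list were read beside those above, and were named after their values were seen. TNFRSF10C, a decoy receptor without a death domain, lay below the filter and was not tested. It was at 0.335 ± 0.119 RPKM in control and 0.719 ± 0.166 RPKM in treated libraries (SD, n = 3). The groups did not overlap, on 14 to 24 reads in control and 30 to 50 in treated libraries. TNFRSF11B (osteoprotegerin), a soluble decoy, was at 0.151 ± 0.0603 and 0.0704 ± 0.0192 RPKM, also below the filter. Its treated libraries all lay under the controls, but on only 6 to 14 reads in control and 3 to 5 in treated libraries. TNFRSF25, another death receptor gene below the filter, was at 0.601 ± 0.467 and 0.658 ± 0.470 RPKM, and its groups overlapped. Groups without overlap were seen in 44.6% of all tested genes, a share that leaves out genes below the filter such as these. Among the adaptors, BIRC3, an inhibitor of apoptosis that ubiquitinates RIPK1, was at 0.0953 ± 0.0305 and 0.0992 ± 0.0613 RPKM, while its relative BIRC2 was at 9.68 ± 0.692 and 10.5 ± 0.878 RPKM and did not pass the test.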
